A study of Homo sapiens with 3 samples.

Results

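BCL6 and the chromatin upstream of it were examined in cells of the human line SC1, labelled DLBCL, a diffuse lymphoma of large B cells. The members are all intervals of a CREBBP peak list and an H3K27ac region list that overlap chr3:187400000-188300000 on hg19, chosen by position and not by any measured value. They are 99 of 215598 CREBBP peaks and 16 of 18263 H3K27ac regions. The BCL6 gene body was taken as chr3:187439165-187463513 on the minus strand (24.3 kb). Higher coordinates are therefore upstream of the gene, and this upstream part runs for 836 kb. The 39.2 kb of the window below the gene lie downstream.

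The groups are SC1 chromatin precipitated for CREBBP, SC1 chromatin precipitated for H3K27ac (acetylation of lysine 27 on histone H3, found at promoters and enhancers in use), and an input with no antibody, with 1 sample each. The labels give 1 cell line and name no treatment or genetic change for any group, while names in both lists contain DMSO and rep2, with no explanation in the labels. The input was not analysed here. With 1 library per antibody, no value below has a replicate error and no difference between cultures could be tested.

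BCL6 encodes a zinc-finger repressor that germinal-centre B cells need, and it is a frequent target of translocation and mutation in lymphomas of that origin. In these cells the gene is known to be controlled from a distance by a cluster of enhancers in the gene-poor stretch between BCL6 and LPP, the next protein-coding gene on that side. CREBBP is a lysine acetyltransferase that acetylates H3K27 at enhancers, and BCL6 bound at enhancers is known to counteract it there. In the RefSeq gene table, which is on another assembly (GRCh38.p14), RTP2 is the neighbouring protein-coding gene on the downstream side and LPP on the upstream side. No annotation of hg19 was used, so exons, introns and other genes are not assigned. Where LPP begins on hg19 was therefore not determined, and intervals in the far portion of the upstream part may lie within LPP. For want of that annotation BCL6 is the only germinal-centre marker gene considered, and the label of the cells was not tested.

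Within the gene body lay 2 H3K27ac regions of low fold and no CREBBP peak. Both H3K27ac regions lay near the 5′ end but not at it. The region at chr3:187457654-187459845 was 2192 bp wide and had a fold enrichment of 2.68, the ratio of ChIP signal to expected background as the authors' peak caller gave it. Of all H3K27ac regions in the list, 17.4% had a lower fold. The region at chr3:187460888-187461690 was 803 bp wide with a fold of 2.03, and 7.05% of all regions had a lower one. These are low values within the list, whose median fold was 4.92.

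The 5′ end of the gene was not covered by an interval of either list. The edge of the nearer H3K27ac region stood 1.82 kb into the gene from the 5′ end. Together the regions covered 2.995 kb, 12.3% of the gene body, against 1.12% of the whole extent of the chromosomes. The −log10 q, a significance that allows for the number of places tested, was 4.42 for the wider region and 5.08 for the narrower. Of all regions, 8.0% and 9.71% had a lower −log10 q than these. The gene body was thus marked over more of its length than the chromosomes as a whole, and weakly for a listed region. It was not compared with other gene bodies.

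CREBBP peaks left a gap of 41.3 kb over the gene, from chr3:187436145 to 187477400. The nearest peak downstream ended 3.02 kb beyond the gene, and the nearest upstream peak began 13.9 kb before the 5′ end. Such a gap is not rare in this list. Of the 215575 gaps between neighbouring CREBBP peaks, 5.12% were at least as long. Such gaps made up 28.6% of the extent of the chromosomes, taken up to the last interval on each. Stretches where no peak could be called, such as centromeres, were not taken out. At the density of the whole list a stretch as long as the gene would hold 1.73 peaks. An absent peak therefore says only that CREBBP was not detectable above the caller's background here, not that it was missing.

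Neither H3K27ac region of the gene held a CREBBP peak, 0 of 2 (exact Clopper-Pearson 95% interval 0 to 84.2%, counting error only), where 49.0% of all H3K27ac regions did. The distance to the nearest CREBBP peak was 17.6 kb for the wider and 15.7 kb for the narrower region. Of all H3K27ac regions, 6.13% and 7.60% were as far or farther. Downstream of the gene the window held no H3K27ac region and 3 CREBBP peaks, with folds of 1.78, 1.86 and 2.15. All 3 had a −log10 q of 0.

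**Figure D1:**
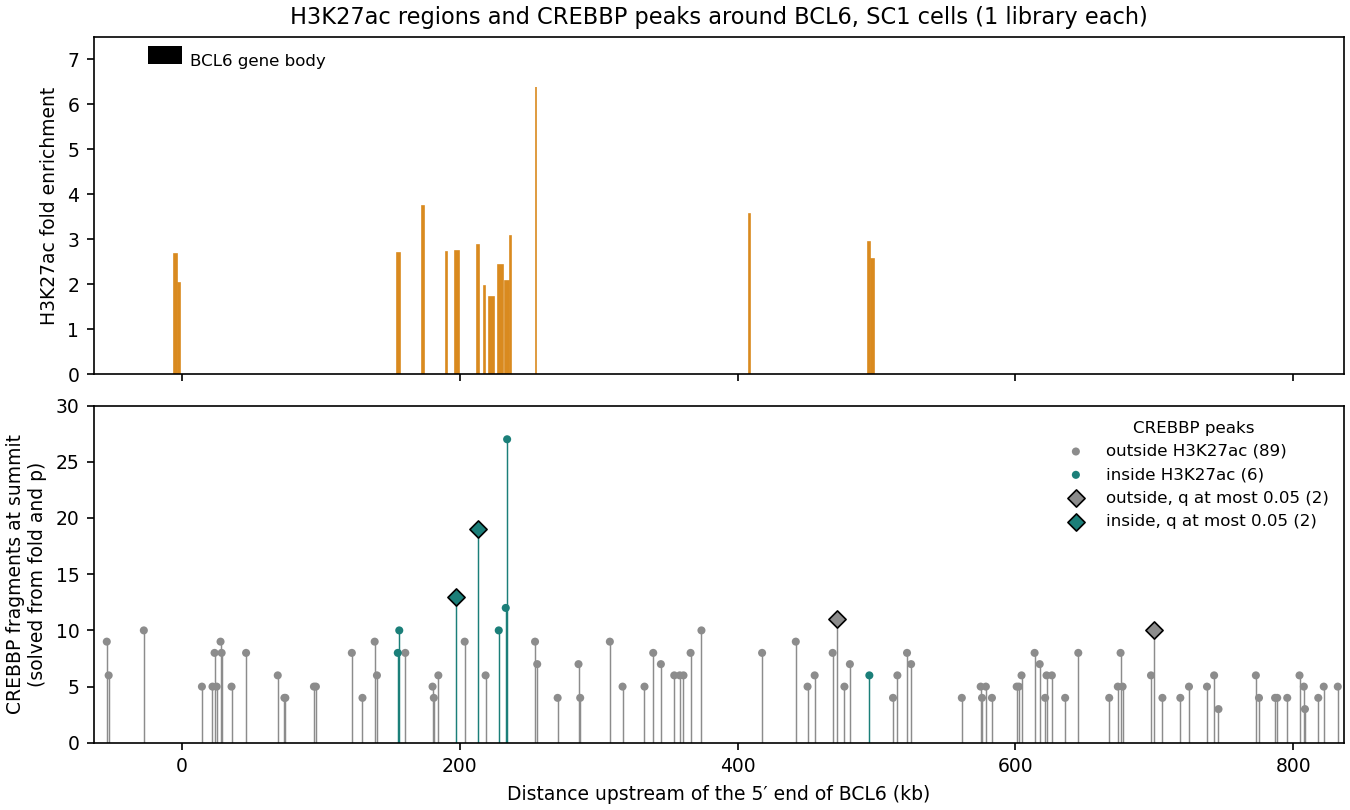
The upper panel plots the authors' fold enrichment of each H3K27ac region, drawn to its width, against distance upstream of the 5′ end of BCL6 in kb, and the lower panel plots the fragments solved at each CREBBP summit on the same axis. The gene holds 2 low H3K27ac regions and no CREBBP peak, while 11 regions and the 2 CREBBP summits with most fragments lie between 155 and 255 kb upstream.

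Upstream of BCL6 the mark lay mainly in one distant stretch. The first 155 kb from the 5′ end held no H3K27ac region. Then 11 regions followed within 100.1 kb, at chr3:187618485-187718580, which are 155 to 255 kb upstream of the gene. They covered 19.9 kb, 19.9% of that stretch. Beyond it, the remaining 581 kb held 3 regions that covered 3.58 kb, 0.616%. The limits of the stretch are those of regions joined over gaps of up to 25 kb, and they were drawn after the values were seen.

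The wider regions of this stretch are given in order from the gene outwards. The first, at chr3:187618485-187620441, was 1957 bp wide with a fold of 2.68 and held 2 CREBBP peaks. The region at chr3:187636541-187637697 was 1157 bp wide with a fold of 3.74 and held none. At chr3:187660261-187663082 a region of 2822 bp had a fold of 2.74 and held 1 CREBBP peak. These 3 stand apart from each other, while the following ones are closer together.

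The region at chr3:187675501-187677071 was 1571 bp wide with a fold of 2.87 and held 1 CREBBP peak. A region of 821 bp at chr3:187680938-187681758 had a fold of 1.95 and a −log10 q of 1.39, the lowest of the 16 in the window. The widest of the 16, at chr3:187684205-187688255, spanned 4051 bp with a fold of 1.72, the lowest of the 16. Neither of the last pair held a CREBBP peak. The region of 3119 bp at chr3:187691305-187694423 had a fold of 2.43 and held 1, and the region of 3002 bp at chr3:187695714-187698715 had a fold of 2.08 and held 2. The 4 widest upstream regions thus had folds of 1.72 to 2.74, none of them among the 5 highest.

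The highest H3K27ac fold of the window belonged to one of its narrowest regions, at the far end of the stretch. It lay at chr3:187718062-187718580, 519 bp wide, with a fold of 6.38 and a −log10 q of 23. The other 15 regions of the window had folds below the median of the list. It held no CREBBP peak. A CREBBP peak with a fold of 3.22 ended 337 bp before it, and another with a fold of 2.40 began 508 bp after it.

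The remaining small regions of the stretch were 544 bp wide with a fold of 2.72 at chr3:187653526-187654069 and 346 bp wide with a fold of 3.08 at chr3:187699777-187700122. Farther upstream a region of 414 bp at chr3:187871728-187872141 had a fold of 3.56. A pair at chr3:187957484-187958605 and chr3:187959850-187961896 had folds of 2.93 and 2.55, and the first of the pair held 1 CREBBP peak. None of the 16 regions reached the median −log10 q of the list, 33.6, and their own median was 6.43.

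**Figure D2:**
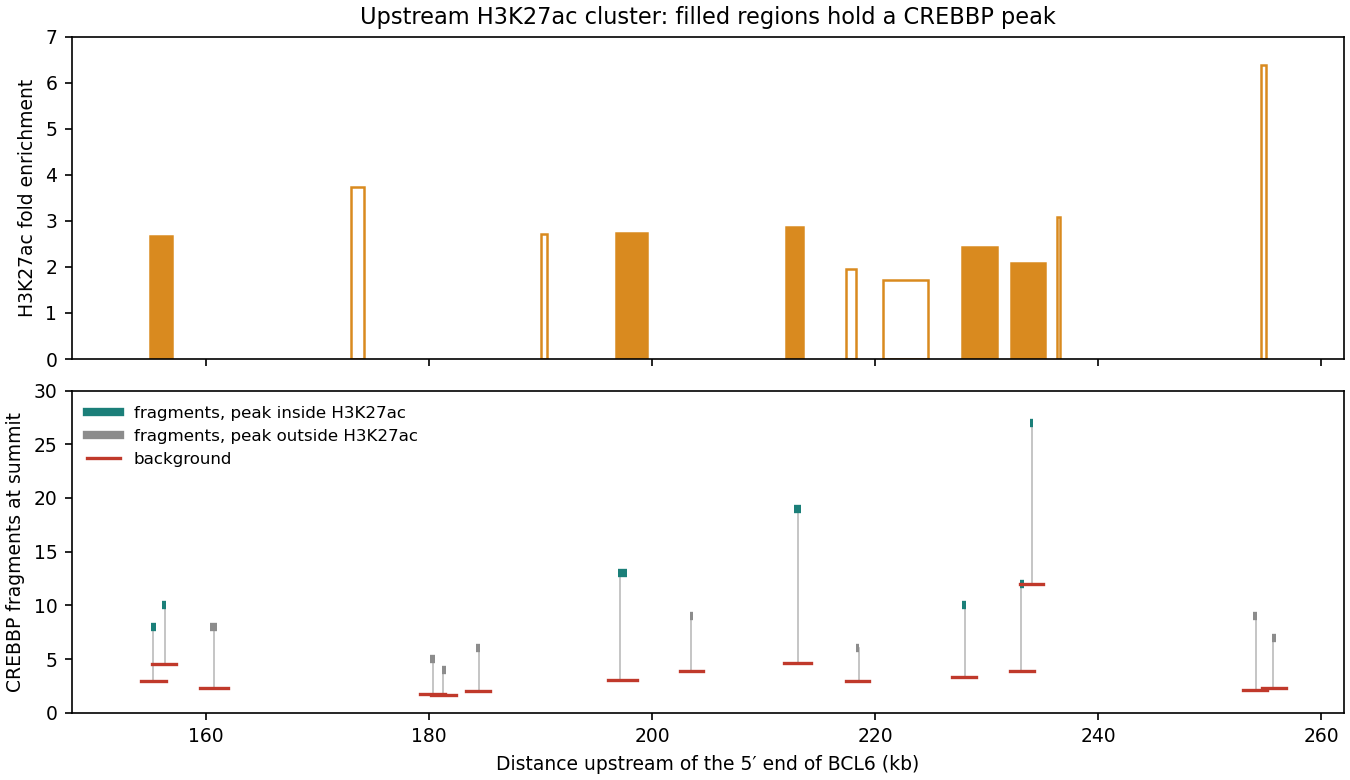
The upper panel plots fold enrichment of H3K27ac regions, drawn to their widths and filled where they hold a CREBBP peak, and the lower panel plots fragments at each CREBBP summit (thick marks, as wide as the peak) and the background there (red lines), both against distance upstream of BCL6 in kb. The tallest H3K27ac region, with a fold of 6.38, is empty, and the summit of 27 fragments stands over a background of 12.

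Joining regions within 12500 bp, the usual distance for assembling large enhancer domains, put 8 of these regions into one domain at chr3:187653526-187700122. It spanned 46.6 kb, with 16.3 kb covered by H3K27ac, 34.9% of its span. By covered length it ranked 143 of 13232 domains, and by span 69. It therefore belonged to the 662 wide domains, the top 5% by covered length, each with at least 8.03 kb covered.

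This domain was wide and weak. Its width-weighted mean H3K27ac fold was 2.29, and none of the other 661 wide domains had a lower one, although other measures put up to 7 of them below it. The next value was 2.34, and the median over wide domains was 5.79 (interquartile range 4.51 to 7.48). By the plain mean of its regions' folds, 2.45, it had 4 wide domains below it, by its highest fold, 3.08, it had 7, and by its highest −log10 q, 8.53, it had 4. When regions were joined within 5 kb, 5 of 790 wide domains were lower than its largest piece. Joining within 25 kb merged it into the whole stretch of 100.1 kb, with a mean fold of 2.52. None of the 538 wide domains then had a lower one. All these measures were chosen after the values were seen.

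**Figure D3:**
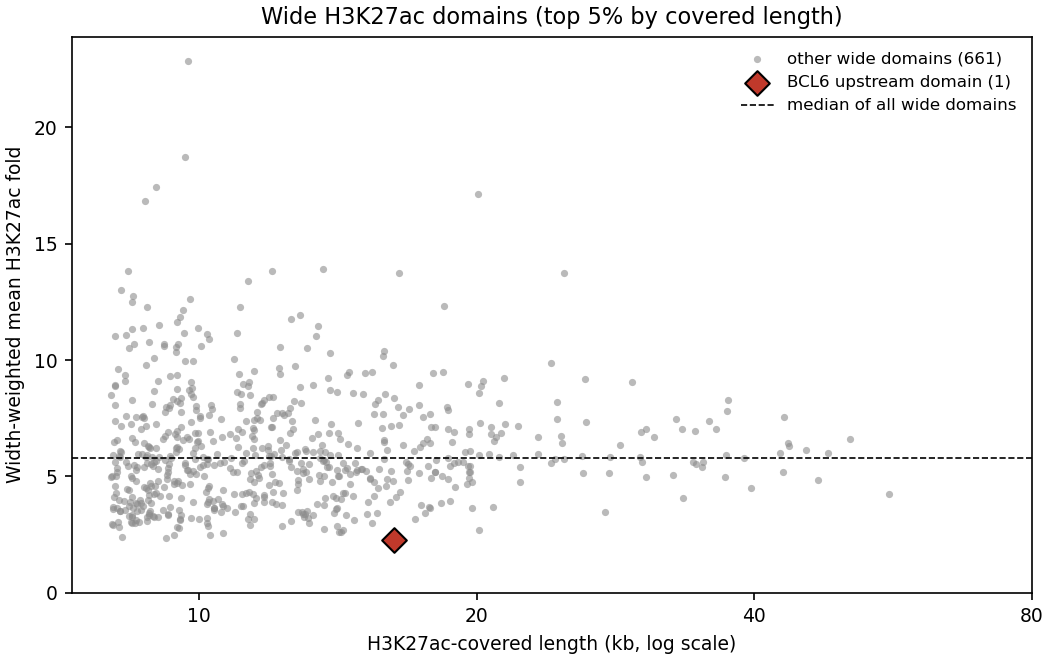
Each point is 1 of the 662 wide H3K27ac domains, with its H3K27ac-covered length in kb on a log scale and its width-weighted mean fold. The domain upstream of BCL6 lies at 16.3 kb and 2.29, under the dashed median of 5.79 and below every other point.

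Just below the window the H3K27ac regions had higher folds than those upstream of BCL6. In the 900 kb below the window 13 regions had a median fold of 4.07 (range 2.21 to 10.7) and covered 53.0 kb. In the upstream part the median was 2.73 (range 1.72 to 6.38) over 14 regions. The 900 kb above the window held only 2 regions, with folds of 1.51 and 4.01. These sides were not tested against each other. Against 3359 tiles of the genome as long as the window, its 26.5 kb of H3K27ac were more than in 88.8% of them (median 4.48 kb).

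CREBBP peaks were spread over the whole upstream part, and their fragment numbers were highest in the distant H3K27ac stretch. The upstream part held 96 peaks, 11.5 per 100 kb, against 8.29 on chromosome 3 and 7.10 over the whole list. Density was 10.97 per 100 kb in the first 155 kb, 13.99 in the H3K27ac stretch (14 peaks) and 11.2 beyond it (65 peaks). The neighbouring 900 kb on either side had 10.9 and 10.1, so the high density was not limited to the BCL6 upstream part. Among the tiles, 87.7% held fewer peaks than the window's 99.

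The number of fragments at a summit and the background there can be solved from the deposited fold and p, as an inference. The median upstream peak had 6 fragments (interquartile range 5 to 8) over a background of 1.82, and the median peak of the list had 5 over 1.3. In the distant H3K27ac stretch the median was 9 fragments over a background of 3.01. In the first 155 kb it was 5 over 1.85, and beyond the stretch 5 over 1.6. Fragments and background were thus both higher in the stretch that carried the mark. A place needed more fragments to enter the list where the background was higher, 3 at 1.3 and 6 at 3.05. Fragment numbers here and below therefore depend partly on the background.

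Of the 96 upstream peaks, 8 lay inside an H3K27ac region, 8.33% (exact interval 3.67 to 15.8%), where 5.06% of the whole list did. All but 1 of the 8 lay in the distant stretch, where 7 of 14 peaks were inside. The 8 peaks had 6 to 27 fragments (median 11) over backgrounds of 2.38 to 12 (median 3.62). The 88 peaks outside had 3 to 11 fragments (median 5.5) over backgrounds of 1.3 to 4.12 (median 1.76). Over the upstream part the median fold hardly differed, at 2.397 inside and 2.405 outside. Within the distant stretch it was 2.53 for the 7 peaks inside and 2.17 for the 7 outside. A q of at most 0.05 was found for 2 of the 8 peaks inside and 2 of the 88 outside. These differences were not tested. Across the list, peaks inside H3K27ac regions had a median of 16 fragments over 6.87, so the medians of the BCL6 upstream peaks inside the mark were lower on both counts.

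Among upstream peaks, 4 had a q of at most 0.05, 4.17% (exact interval 1.15 to 10.3%), where 1.81% of the list did. Of the 4, 2 lay in the H3K27ac stretch and 2 outside any H3K27ac region, where 56.5% of such peaks in the list were inside. The strongest by −log10 q, 2.91, was at chr3:187676278-187676833, 213 kb upstream. It had 19 fragments over a background of 4.62 and a fold of 3.56, inside the region of 1571 bp. The peak at chr3:187660499-187661283, 197 kb upstream, had 13 fragments over 3.05 and a fold of 3.46, with a −log10 q of 1.58. Both stand within the wide, weak domain, as did such a peak in 55.9% of wide domains.

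The other 2 lay farther upstream and away from the mark. The peak at chr3:188162439-188163983 had the largest fold of the window, 4.77, and was 1545 bp wide. Of the list, 99.9% had a lower fold and 99.8% a smaller width. It had 10 fragments over the commonest background of 1.3 and a −log10 q of 2.79. H3K27ac was nearest at a distance of 200.5 kb. The peak at chr3:187934911-187935506 had a fold of 3.65 with 11 fragments over 2.29, and its nearest H3K27ac region was 22 kb away. Both had fewer fragments, over lower backgrounds, than the pair inside the mark.

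The summit with most fragments did not pass that threshold. At chr3:187697358-187697692, 234 kb upstream and inside the region of 3002 bp, 27 fragments stood over a background of 12, which gave a fold of 2.15 and a −log10 q of 0.728. Of the list, 99.0% of peaks had fewer fragments and 35.1% a lower fold. At that background a place needed 18 fragments to enter the list, and at the commonest background it needed 3. The neighbouring peak in the same region, at chr3:187696499-187696815, had 12 fragments over 3.90 and a fold of 2.66. These peaks are less than 1 kb apart and differ more in background than in fold.

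**Figure D4:**
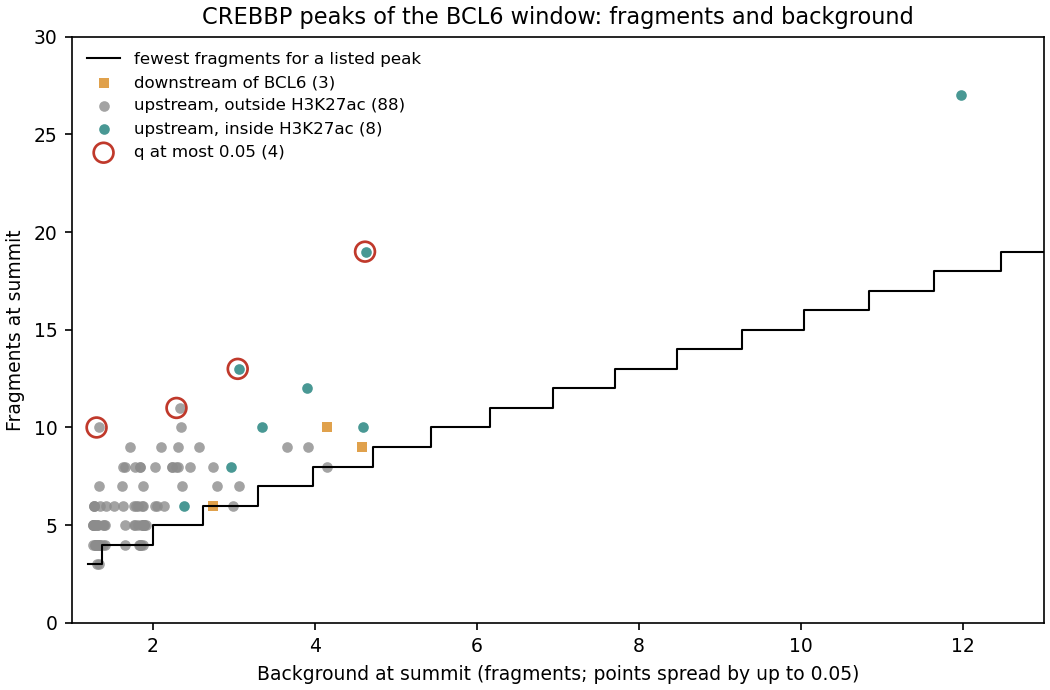
Each point is a CREBBP peak of the window, with the solved background on the x axis and the solved fragments on the y axis, and the black line gives the fewest fragments that enter the list at each background. The 8 peaks inside H3K27ac regions reach from 6 to 27 fragments, the 88 upstream peaks outside stay between 3 and 11, and red rings mark the 4 peaks with q of at most 0.05.

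Most upstream peaks with 10 or more fragments lay inside the mark, as in the list as a whole. There were 9 such peaks upstream (9.38% of 96, where the background is 6.42%), and 6 of the 9 lay inside an H3K27ac region, against 63.9% of such peaks in the list. Besides those named, they were at chr3:187619576-187619918 and chr3:187691339-187691621, each with 10 fragments inside a region, and at chr3:187837358-187837668 with 10 fragments outside. Downstream of the gene the peak at chr3:187435826-187436144 also had 10 fragments, over 4.12. Of the 5 peaks with the largest fold among those not passing the q threshold, all lay outside. They were at chr3:187905295-187905637 with a fold of 3.71, at chr3:188080423-188081197 with 3.47, at chr3:188076847-188078225 with 3.46, at chr3:187585557-187586001 with 3.37, and the peak of 10 fragments outside with 3.32. The limit of 10 fragments was chosen after the values were seen.

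Many upstream peaks had the lowest −log10 q or the lowest background found in the list, though the shares were smaller than in the whole list. A −log10 q of 0 was given to 63 of the 96 peaks (65.6%), against 80.7% of the list. The commonest background, 1.3 fragments, was found at 27 (28.1%), against 55.4% of the list. Exactly the same fold of 2.17, which is 4 fragments over that background, recurred in 11 upstream peaks (11.5%), against 21.8% of the list. More than 50 kb from any H3K27ac region lay 49 peaks (51.0%), with a median of 5 fragments over 1.3, against 63.0% of the list, with a median of 4 over 1.3. The values of these peaks rest on a few fragments each.

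Seen from the mark, 6 of 14 upstream H3K27ac regions held a CREBBP peak, 42.9% (exact interval 17.7 to 71.1%), where the background is 49.0%. A CREBBP peak of q at most 0.05 lay in 2 of 14 (14.3%, exact interval 1.78 to 42.8%), where the background is 11.4%. Both shares are near those of the list. The 6 regions that held a peak were 1122 to 3119 bp wide (median 2390 bp) with folds of 2.08 to 2.93. The 8 without one were 346 to 4051 bp wide (median 683 bp) with folds of 1.72 to 6.38. These ranges overlap. The wide domain held 5 CREBBP peaks in its regions, 0.307 per kb covered, against a median of 0.236 over wide domains, of which 97.9% held at least 1.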

How the data were processed

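CREBBP and H3K27ac ChIP-seq lists from SC1 cells were used, 1 sample each. The submitters' processing notes name fastp, Bowtie2, STAR and MACS2 and the build hg19. What each did, with which version and settings, is not given in the sources used, nor are the control library, any pooling or the depth. The authors deposited narrow CREBBP peaks and broad H3K27ac regions, each with a score (not used further), a fold ratio, and −log10 p and −log10 q. The CREBBP list also gives summits. For H3K27ac the format defines them as region means. The CREBBP list goes down to a −log10 p of 1.3, with no limit on q, so values of the lists do not compare with each other.

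Intervals off chromosomes 1 to 22 and X (128 CREBBP, 17 H3K27ac) were dropped. Positions are counted from 1. An interval that met the gene body by at least 1 bp was given to the gene. Inside means at least 1 bp shared with an H3K27ac region. Fragments n and background b at a CREBBP summit were solved from fold = (n + 1)/(b + 1) and p as the upper Poisson tail above n. A whole n matched −log10 p within 0.001 for 99.99% of the list and for all 99 peaks of the window. Intervals of shares are exact Clopper-Pearson 95% intervals. They reflect counting error alone and take peaks to be independent. The code was tested on planted answers. It returned 200 of 200 overlaps among 500 intervals placed on or between H3K27ac regions of the list. It also returned 1000 of 1000 simulated fragment numbers, all of them far below the largest solved in the list, 7049. No test between conditions was possible with 1 sample a group.

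Named intervals were those in the gene body, the 10 widest H3K27ac regions and the 5 of largest fold elsewhere, CREBBP peaks of q at most 0.05 and, of the others, the 5 with most fragments (ties kept) and the 5 of largest fold. Remaining H3K27ac regions were named after their values were seen. The members and lists were chosen with earlier results of these data known. Alternatives were stricter lists, other overlaps, other joining distances and shifted tiles. A BCL6 promoter sequence was to be shown only if an interval met the 5′ end, and none did. Python 3.11.15, numpy 2.4.6, pandas 2.3.3, scipy 1.17.1 and matplotlib 3.10.9 were used.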

Additional observations from a re-analysis of the deposited data

How the results depend on the processing

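Of 33 alternative values, 19 stayed close to the reported one. Close means within 1.5 times it for numbers, lengths and medians, or within its exact 95% interval for shares and places among tiles. Some of the 19 could not differ. The gene's CREBBP peak number and its share of regions holding a peak were 0 and could only stay 0 under a narrower rule. Assigning peaks by summit or limiting them to q of at most 0.05 could not test the absence of CREBBP peaks from the gene body. Both rules only remove peaks from those that met the gene, and none did. With H3K27ac regions limited to the upper 50% by q, the gene kept 0 regions and 0 kb and the upstream part 0 regions and 0 kb, and the window then had more H3K27ac than 0% of the tiles. Every H3K27ac value here therefore rests on regions from the weaker part of that list. Limited to a CREBBP q of at most 0.05, the upstream part had 4 peaks, of which 50% lay inside H3K27ac regions, 14.3% of upstream regions held one, and 91.1% of tiles had fewer. Joining within 25 kb gave 3 upstream domains, against 6 within 12500 bp and 8 within 5 kb. The number of wide domains with a lower H3K27ac fold, 0 by the width-weighted mean, was 4 by the plain mean, 7 by the highest fold, 4 by the highest −log10 q and 5 with joining within 5 kb. The width-weighted mean and these other measures of the wide domain were all added after the data were seen. Shares inside and holding were the same at 50% overlap, and the share inside also by summit. The depth of the libraries is unknown, and most upstream CREBBP peaks rest on 8 or fewer fragments. No paired analysis was possible because no group had a second sample.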
